A study of Mus musculus with 10 samples.

Results

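Fibroblast growth factor (FGF) signals reach limb bud cells through cell-surface receptors and the adaptors docked to them. The account covers the 7 genes that encode these proteins: the 4 receptor tyrosine kinases Fgfr1, Fgfr2, Fgfr3 and Fgfr4, the receptor-like gene Fgfrl1, and the adaptor genes Frs2 and Frs3. They were taken by symbol from a count table of 55401 genes, in which each of the 7 has 1 row, and all 7 were among the 19126 genes tested. The RNA came from the forelimb-bud ectoderm of mouse embryos at stage E9.75. The mutants are double knockouts of the zinc finger genes Sp8 and Sp6 (DKO, 3 libraries), and their littermate controls are wild type (WT, 3 libraries). The ectoderm of about 2 forelimb buds was peeled off after trypsin digestion for each library, so RNA was read from the whole sheet. The labels give no strain, and they do not say which embryos or litters gave which library. p-values therefore measure the spread between these 6 libraries. A further 2 SP6KO and 2 WT samples at E10.5 were not analysed here.

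An FGF binds its receptor together with heparan sulfate, and a pair of receptors then phosphorylate each other. FRS2 and FRS3 sit under the membrane, are phosphorylated by the active receptor, and recruit GRB2 and the phosphatase SHP2 (gene Ptpn11), which start the RAS and MAPK relay. FGFRL1 binds FGFs but lacks the tyrosine kinase domain. In the limb bud, the IIIb splice form of FGFR2 in the ectoderm receives FGF10 from the mesenchyme, while FGFs from the apical ectodermal ridge act back on receptors of the mesenchyme.

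The form of the receptor is set by the choice between alternative exons of Fgfr2. The counts analysed here are totals per gene and do not tell reads of one splice form from those of another.

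The 6 libraries held 64432348 to 87040786 counts, on 21716 to 24651 detected genes. Levels are CPM, counts per 1000000 counts of the library after TMM scaling. The targeted gene Sp8 had 5.86, 2.38 and 2.80 CPM in DKO 17, DKO 40 and DKO 41, against 31.3 to 43.2 CPM in WT (edgeR adjusted p = 0.000806). Sp6 had 133.2, 13.9 and 76.9 CPM in DKO 17, DKO 40 and DKO 41, against 228.5 to 319.9 CPM in WT (edgeR adjusted p = 0.207). DKO 17 thus kept more transcript of both genes than the other DKO libraries. Ectoderm and epithelium markers, 19 genes all with counts, summed to 3110 to 4259 CPM in DKO and 4623 to 5043 CPM in WT. At an edgeR adjusted p under 0.05, 4 of them fell and 2 rose, and 16 had a log2 fold change below 0. Ridge markers, also 19 genes, summed to 763.2 to 1157 CPM in DKO and 3190 to 3871 CPM in WT. At that threshold 13 of them fell and 0 rose, against 2.81% lower and 1.70% higher over all genes tested. Limb mesenchyme markers, 20 genes of which several are also read in ectoderm, summed to 694.6 to 984.3 CPM in DKO and 719.2 to 831.4 CPM in WT. Blood markers differed most between libraries and summed to 26.5 CPM in DKO 17, 117.01 CPM in DKO 40 and 888.6 CPM in DKO 41, and to 0.591, 299.4 and 0.71 CPM in WT 32, WT 53 and WT 56. Endothelial markers summed to 51.7 to 74.7 CPM in DKO and 34.01 to 47.6 CPM in WT, most of it Egfl7 (50.2 to 74.0 CPM in DKO and 32.9 to 47.3 CPM in WT). Muscle precursor markers summed to 35.3 to 43.0 CPM in DKO and 20.1 to 27.7 CPM in WT. Neural crest and nerve markers summed to 41.6 to 52.0 CPM in DKO and 111.9 to 154.8 CPM in WT. Most of this gap was Tubb3 (1.19 to 3.92 CPM in DKO and 71.2 to 115.6 CPM in WT). Sox10 of the same list went the other way, with 3.21 to 12.5 CPM in DKO and 0.767 to 4.26 CPM in WT. DESeq2 called Sox10 higher (adjusted p = 0.0241) and edgeR did not (adjusted p = 0.103). Of the 6 genes of this list that were tested, 4 had a log2 fold change below 0. Macrophage markers summed to 0.288 to 1.18 CPM in DKO and 0.172 to 0.474 CPM in WT. Periderm markers summed to 489.8 to 709.6 CPM in DKO and 897.4 to 1138 CPM in WT. At 0 in all 6 libraries were Cdh5 of 8 endothelial, Foxd3 of 8 neural crest and nerve, Adgre1 of 6 macrophage, and Krt4 and Krt13 of 7 periderm markers.

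Of the 7 genes, 0 passed the threshold of an adjusted p under 0.05 in edgeR's quasi-likelihood test, in a comparison in which 4.51% of the genes tested were called (2.81% lower and 1.70% higher in DKO). At an unadjusted p under 0.05 there were 3 of 7 (Fgfr3, Fgfr4 and Frs2), against 18.0% of all genes. DESeq2's Wald test called 1 of 7, Fgfr3, against 8.30% of the genes to which it gave an adjusted p. The DKO libraries did not overlap the WT libraries for 2 of 7, Fgfr4 and Frs2, against 21.9% of all genes. The log2 fold change, DKO minus WT, was below 0 for 3 genes and above 0 for 4, and its median was 0.04, against 0.03 over all genes tested. Single members lay on both sides of this median, from -2.11 for Fgfr3 to 1.58 for Fgfr4.

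**Figure D1:**
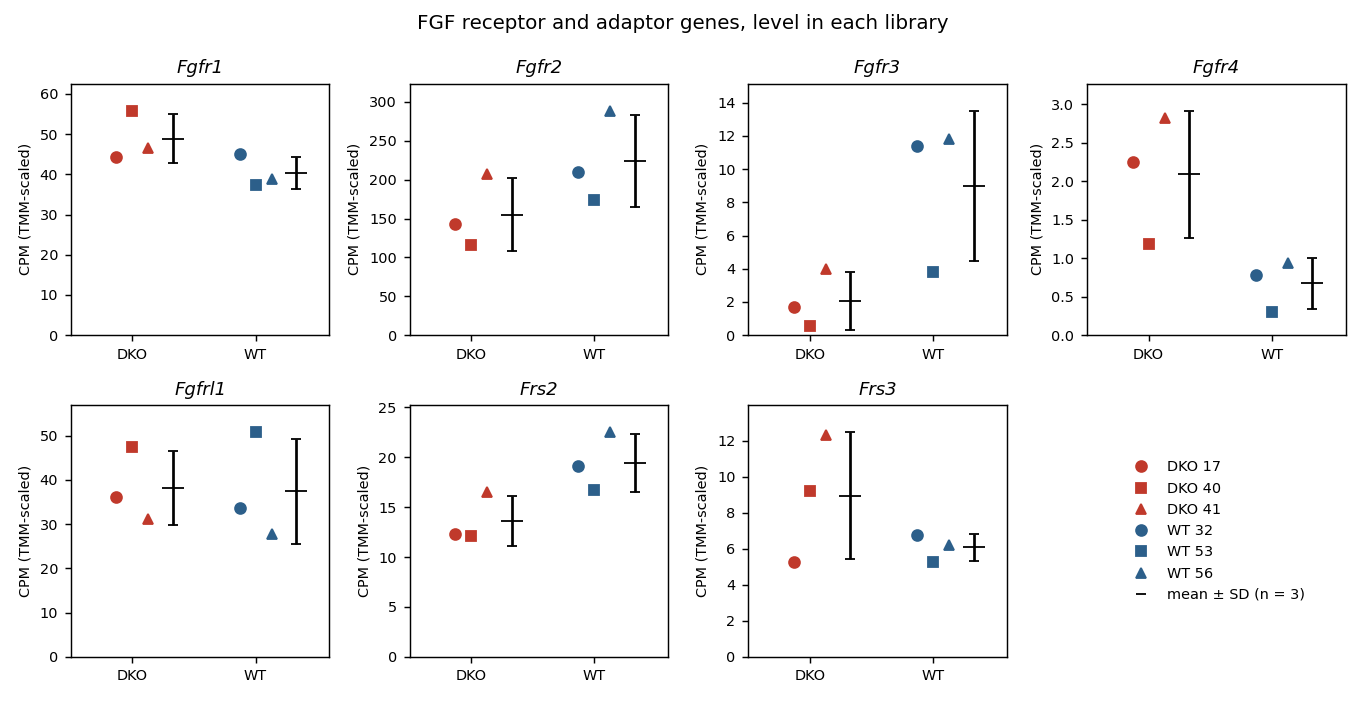
Level of each gene in CPM (TMM-scaled, linear axes that start at 0) in the 3 DKO libraries and the 3 WT libraries, each library with its own symbol, beside the mean ± SD. The groups are apart for Fgfr4 and Frs2, while for Fgfr3 the library DKO 41 (3.98 CPM) lies just above WT 53 (3.79 CPM).

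Fgfr2 encodes the receptor through which limb ectoderm answers mesenchymal FGF10, and it was the most abundant of the 4 kinases in each of the 6 libraries. Its gene (ENSMUSG00000030849.18) spans chr7:130162451-133123350 on the minus strand in the annotation, including transcripts that reach as far as Ctbp2, with which it shares 314 exon bases. Ctbp2, on the same strand, had 9957 to 16384 counts in the 6 libraries (174.0 to 214.1 CPM in DKO and 145.3 to 157.2 CPM in WT). The part of this overlap in the counts of Fgfr2 was not tested. Fgfr2 had 142.9, 115.5 and 206.9 CPM in DKO 17, DKO 40 and DKO 41, against 210.1, 173.8 and 288.8 CPM in WT 32, WT 53 and WT 56. The highest DKO library stood above the lowest WT library, so the groups overlapped. The means were 155.1 ± 46.9 CPM in DKO and 224.2 ± 58.8 CPM in WT (SD, n = 3 each). The log2 fold change was -0.53 (SE 0.238, 95% confidence interval -1.07 to 0.01; edgeR adjusted p = 0.284), and the interval reaches 2.10-fold lower in DKO at its lower end. It was -0.36 without DKO 40, -0.81 without DKO 41, -0.32 without WT 56 and -0.88 without both DKO 41 and WT 32, and none of these passed. Within DKO, the summed ectoderm markers had the same order of libraries as Fgfr2 (DKO 40, DKO 17, DKO 41 from low to high). Within WT the orders differed, with WT 32, WT 53, WT 56 for the markers and WT 53, WT 32, WT 56 for Fgfr2. The part of the ectoderm markers in the level of Fgfr2 was not tested. In bulk ectoderm, fewer cells that express a gene and less RNA per cell cannot be told apart.

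Fgfr1 encodes the receptor that is best known in limb mesenchyme (ENSMUSG00000031565.18, chr8:25513654-25575718). It had 44.3, 55.9 and 46.6 CPM in DKO 17, DKO 40 and DKO 41, against 44.9, 37.4 and 38.8 CPM in WT 32, WT 53 and WT 56. Only WT 32 reached into the range of the DKO libraries. The means were 48.9 ± 6.14 CPM in DKO and 40.4 ± 4.02 CPM in WT (SD, n = 3 each), with a log2 fold change of 0.27 (SE 0.148, 95% confidence interval -0.06 to 0.61; edgeR adjusted p = 0.385). The upper end of the interval is 1.52-fold higher in DKO. DKO 40 had the highest Fgfr1 and also the highest summed mesenchyme markers, 984.3 CPM. Of the 20 markers on that list 19 were tested, of which 2 rose and 1 fell by edgeR, against 1.70% higher and 2.81% lower over all genes, and DESeq2 called 5 higher and 2 lower. Meis2 rose (161.9 to 170.4 CPM in DKO and 78.4 to 83.3 CPM in WT), as did Meis1 (190.6 to 252.5 CPM in DKO and 132.9 to 144.8 CPM in WT), and Pdgfra fell (2.57 to 10.3 CPM in DKO and 37.4 to 94.5 CPM in WT). The call of Meis1 was lost without DKO 40, WT 32, WT 53 or WT 56. The transcription factor genes Prrx2 (65.4 to 174.3 CPM in DKO and 18.5 to 49.4 CPM in WT), Twist1 (20.4 to 46.7 CPM in DKO and 1.47 to 14.8 CPM in WT) and Twist2 (12.3 to 67.1 CPM in DKO and 0.549 to 7.39 CPM in WT) were each higher in every DKO library than in any WT library and highest in DKO 40. They did not pass in edgeR (adjusted p = 0.0906, 0.135 and 0.078), while DESeq2 called Prrx2 and Twist2 (adjusted p = 0.00151 and 0.0308). Over all genes tested, the groups did not overlap for 21.9%. Col1a2 of the same list went the other way, with 99.7 to 173.2 CPM in DKO and 203.7 to 316.2 CPM in WT (edgeR adjusted p = 0.0704, DESeq2 adjusted p = 0.00751). Of the 19 markers tested, 8 had a log2 fold change below 0. Prrx1 differed by library instead. Prrx1 had 3.51, 23.3 and 12.8 CPM in DKO 17, DKO 40 and DKO 41, against 29.0, 1.61 and 0.412 CPM in WT 32, WT 53 and WT 56. The libraries with the most Prrx1 in each group, DKO 40 and WT 32, were also those with the most Fgfr1 in each group, and the part of mesenchyme RNA in Fgfr1 was not tested.

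By TPM, Fgfr3 and Fgfr4 were the least abundant of the 7 genes in both groups, and they differed most between the groups, in opposite directions. Fgfr3 encodes the receptor known above all as a brake on growth-plate cartilage (ENSMUSG00000054252.18, chr5:33721674-33737068). It had 142, 42 and 355 counts in DKO 17, DKO 40 and DKO 41, against 985, 240 and 1033 counts in WT 32, WT 53 and WT 56. As CPM these were 1.70, 0.549 and 3.98 in DKO and 11.4, 3.79 and 11.8 in WT. The DKO libraries were low except for DKO 41 and the WT libraries high except for WT 53, and these 2 overlapped.

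The mean of Fgfr3 was 2.08 ± 1.74 CPM in DKO and 9.01 ± 4.52 CPM in WT (SD, n = 3 each), 4.34-fold lower in DKO. The log2 fold change of -2.11 (SE 0.569, 95% confidence interval -3.40 to -0.83) did not pass over all genes (edgeR adjusted p = 0.0764). It passed without DKO 41 (-3.03, edgeR adjusted p = 0.0494) and without WT 53 (-2.44, edgeR adjusted p = 0.0481). Without any 1 of the other 4 libraries it was between -1.97 and -1.69 (edgeR adjusted p between 0.162 and 0.264), and without both DKO 41 and WT 32 it was -2.86 (edgeR adjusted p = 0.124). DESeq2's Wald test called it (log2 fold change -2.12, adjusted p = 0.0207). DKO 41 and WT 53 were also the libraries with the most blood transcript in their groups, 888.6 and 299.4 CPM. The library with the most blood transcript thus had the most Fgfr3 in DKO but the least Fgfr3 in WT. The part of blood RNA in the level of Fgfr3 was not tested. Of the exons of Fgfr3, 998 bases overlap G630022F23Rik on the other strand, which had 5 counts in WT 56 and 0 counts in the other libraries.

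Fgfr4 encodes the receptor best known in liver and in growing muscle (ENSMUSG00000005320.9, chr13:55152640-55168759). It had 187, 91 and 252 counts in DKO 17, DKO 40 and DKO 41, against 67, 19 and 82 counts in WT 32, WT 53 and WT 56. As CPM these were 2.24, 1.19 and 2.82 in DKO and 0.776, 0.300 and 0.939 in WT, and each DKO library lay above each WT library. The mean was 2.09 ± 0.829 CPM in DKO and 0.671 ± 0.332 CPM in WT (SD, n = 3 each), 3.11-fold higher in DKO. The log2 fold change was 1.58 (SE 0.498, 95% confidence interval 0.46 to 2.71), short of the threshold (edgeR adjusted p = 0.122; DESeq2 adjusted p = 0.0794). With 1 library left out it was between 1.29 and 1.88 and did not pass (edgeR adjusted p between 0.122 and 0.30). The muscle precursor markers were higher in DKO as a sum because of 1 gene, Met, which encodes a receptor that epithelia also express. Met had 40.1, 34.2 and 39.3 CPM in DKO 17, DKO 40 and DKO 41, against 19.3, 25.0 and 26.7 CPM in WT 32, WT 53 and WT 56 (edgeR adjusted p = 0.0586; DESeq2 adjusted p = 0.00619). The other 5 markers were at or near 0: Pax3 was at most 2.49 CPM in any library, Pax7, Lbx1 and Myod1 were lower still, and Myf5 had reads in WT 32 only.

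Set against each other, these rare receptors ranked differently in the groups. Dividing each library's Fgfr3 level by its Fgfr4 level, both as TPM (counts divided by exon length and scaled to a sum of 1000000 in each library), gave 0.376, 0.228 and 0.697 in DKO 17, DKO 40 and DKO 41. The same ratio was 7.27, 6.25 and 6.23 in WT 32, WT 53 and WT 56. DKO 41 and WT 53, which overlap for Fgfr3 alone, stand apart by this ratio. Per coding length the ratio was 0.708, 0.43 and 1.31 in DKO and 11.7 to 13.7 in WT. In DKO 41 the order of the 2 genes thus depends on the length used. A change of length multiplies the ratio by the same factor in each library, so it is no check of the gap between the groups. The ratio was chosen after the counts were seen and carries no test.

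**Figure D2:**
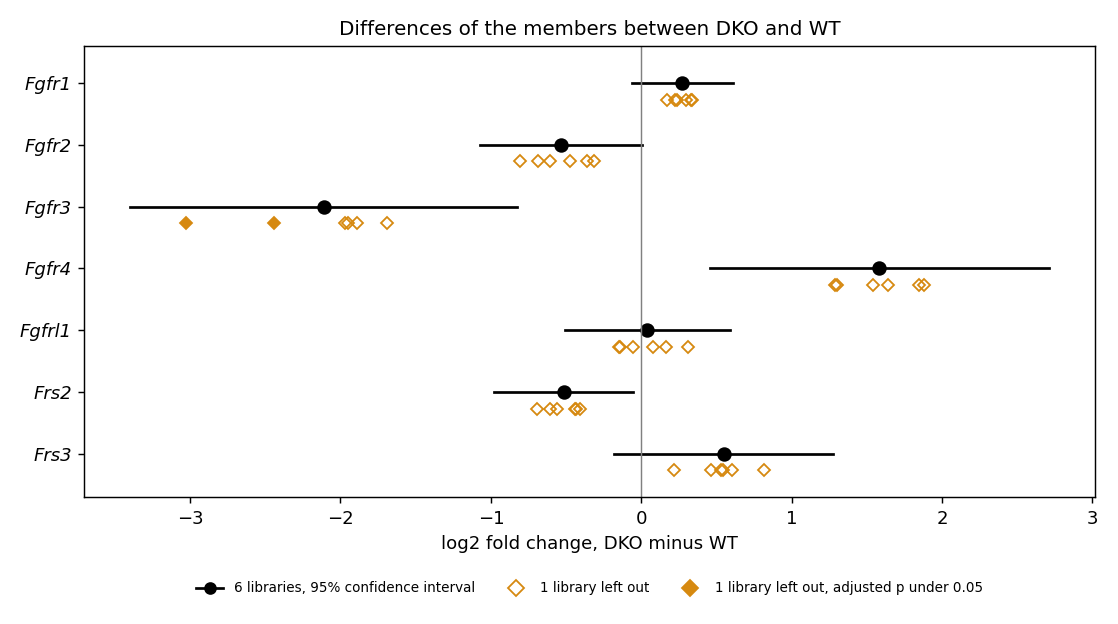
Log2 fold change, DKO minus WT, of each gene from the edgeR fit on 6 libraries (black, with the unadjusted 95% confidence interval) and with each library left out in turn (diamonds, filled where the adjusted p is under 0.05). The interval excludes 0 for Fgfr3, Fgfr4 and Frs2, and the filled diamonds are those of Fgfr3 without DKO 41 and without WT 53.

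Fgfrl1, the receptor without a kinase (ENSMUSG00000008090.14, chr5:108692382-108706924), had 36.04, 47.5 and 31.2 CPM in DKO 17, DKO 40 and DKO 41, against 33.6, 50.7 and 27.8 CPM in WT 32, WT 53 and WT 56. The groups cover almost the same range. The means were 38.2 ± 8.36 CPM in DKO and 37.4 ± 11.9 CPM in WT (SD, n = 3 each), and the log2 fold change was 0.04 (SE 0.243, 95% confidence interval -0.51 to 0.59; edgeR adjusted p = 0.955). A difference of up to 1.51-fold up or 1.42-fold down lies within this interval. Its sign depended on single libraries, being -0.14 without DKO 40, -0.05 without WT 32, -0.15 without WT 56, 0.08 without DKO 17, 0.16 without DKO 41 and 0.31 without WT 53. Within each group Fgfrl1 ran against Fgfr2: DKO 40 and WT 53 had the most Fgfrl1 and the least Fgfr2, and DKO 41 and WT 56 the least Fgfrl1 and the most Fgfr2. This order over 3 libraries a group is a description without a test.

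Frs2 and Frs3 encode the docking adaptors of the active receptors. Frs2, the more widely used of the pair (ENSMUSG00000020170.4, chr10:117069427-117148534), had 12.3, 12.1 and 16.5 CPM in DKO 17, DKO 40 and DKO 41, against 19.1, 16.8 and 22.5 CPM in WT 32, WT 53 and WT 56. The groups did not overlap, but DKO 41 (16.5 CPM) and WT 53 (16.8 CPM) nearly met. Its means were 13.6 ± 2.51 CPM in DKO and 19.5 ± 2.89 CPM in WT (SD, n = 3 each), with a log2 fold change of -0.52 (SE 0.205, 95% confidence interval -0.98 to -0.05; edgeR adjusted p = 0.223).

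Frs3, best known from neural tissue (ENSMUSG00000023266.11, chr17:47689030-47704286), had 5.29, 9.21 and 12.3 CPM in DKO 17, DKO 40 and DKO 41, against 6.79, 5.29 and 6.21 CPM in WT 32, WT 53 and WT 56. DKO 17 lay with the WT libraries and the other DKO libraries above them. Its means were 8.95 ± 3.53 CPM in DKO and 6.10 ± 0.755 CPM in WT (SD, n = 3 each), with a log2 fold change of 0.55 (SE 0.321, 95% confidence interval -0.18 to 1.27; edgeR adjusted p = 0.426). It was 0.82 without DKO 17 and 0.22 without DKO 41, neither of which passed. Exons of Frs3 share 509 bases with the antisense gene Frs3os and 69 with Tomm6os. These had 0 to 43 and 0 to 94 counts in the 6 libraries, against 335 to 1101 counts for Frs3, and the library chemistry does not separate strands.

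The means of the 2 adaptors in DKO lay on opposite sides of those in WT, and neither passed the test. The TPM of Frs2 over that of Frs3 was 0.83, 0.47 and 0.479 in DKO 17, DKO 40 and DKO 41, against 1.01, 1.13 and 1.29 in WT 32, WT 53 and WT 56. Per coding length the ratio was 1.27 to 2.25 in DKO and 2.73 to 3.51 in WT. Which adaptor is the more abundant in DKO therefore depends on the length used, while in WT it was Frs2 at both lengths. Frs2 has 8747 exon bases of which 1524 are coding, and Frs3 has 3128 of which 1476 are coding. The ratio was lower in each DKO library than in each WT library at either length. A change of length multiplies the ratio of each library alike and cannot alter this. This ratio, too, was chosen after the counts were seen. The summed level of both adaptors was 8.61, 12.2 and 18.0 TPM in DKO 17, DKO 40 and DKO 41, against 13.0, 10.3 and 14.0 TPM in WT 32, WT 53 and WT 56, and these ranges overlap.

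Ordered by TPM per exon length, the DKO libraries had Fgfr2 first (43.9 ± 15.8 TPM), then Fgfrl1 (39.5 ± 7.42), Fgfr1 (14.3 ± 1.74), Frs3 (8.38 ± 3.72), Frs2 (4.54 ± 1.11), Fgfr4 (1.72 ± 0.756) and Fgfr3 (0.863 ± 0.768). The order in WT was Fgfr2 (64.8 ± 19.4 TPM), Fgfrl1 (39.6 ± 11.03), Fgfr1 (12.1 ± 1.39), Frs2 (6.62 ± 1.23), Frs3 (5.80 ± 0.868), Fgfr3 (3.78 ± 1.97) and Fgfr4 (0.570 ± 0.296) (SD, n = 3 each). Compared within each library at this length, the order of neighbours was the same in the 3 libraries of each group except for Fgfr2 and Fgfrl1. Fgfr2 was above Fgfrl1 in DKO 17 and DKO 41 but not in DKO 40 (31.5 against 48.1 TPM), and in WT 32 and WT 56 but not in WT 53 (47.9 against 51.9 TPM). Frs2 and Frs3 in WT 32 nearly met, at 6.51 and 6.47 TPM. With coding length their order turns round in DKO but not in WT, as above.

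Of the summed TPM of the 5 receptor genes, Fgfr2 made up 43.0%, 32.6% and 53.7% in DKO 17, DKO 40 and DKO 41, against 52.4%, 42.6% and 63.8% in WT 32, WT 53 and WT 56. These shares overlap (43.1 ± 10.6% in DKO and 53.0 ± 10.6% in WT, SD, n = 3 each; two-sided exact permutation p = 0.50). Fgfr1 made up 13.9%, 16.5% and 12.6% in DKO 17, DKO 40 and DKO 41, against 11.7%, 9.59% and 8.96% in WT 32, WT 53 and WT 56. Each DKO library was above each WT library, a difference of 4.26 percentage points. That of Fgfr4 was likewise higher in each DKO library (1.70 ± 0.627% in DKO and 0.461 ± 0.215% in WT, SD, n = 3 each). For both the exact permutation p was 0.10, the smallest that 3 against 3 libraries can give, so this test could not have passed (0.25 after Benjamini-Hochberg adjustment over the 5 shares). The share of Fgfr3 was 0.818 ± 0.637% in DKO and 3.07 ± 1.51% in WT, and that of Fgfrl1 40.02 ± 9.85% in DKO and 33.4 ± 11.8% in WT (SD, n = 3 each; exact permutation p = 0.20 and 0.50, adjusted p = 0.333 and 0.50). The shares cannot move independently, since they add up to the whole. The 4 kinases together came to 53.4, 48.6 and 80.4 TPM in DKO 17, DKO 40 and DKO 41, against 79.6, 60.5 and 103.9 TPM in WT 32, WT 53 and WT 56, with overlapping groups.

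**Figure D3:**
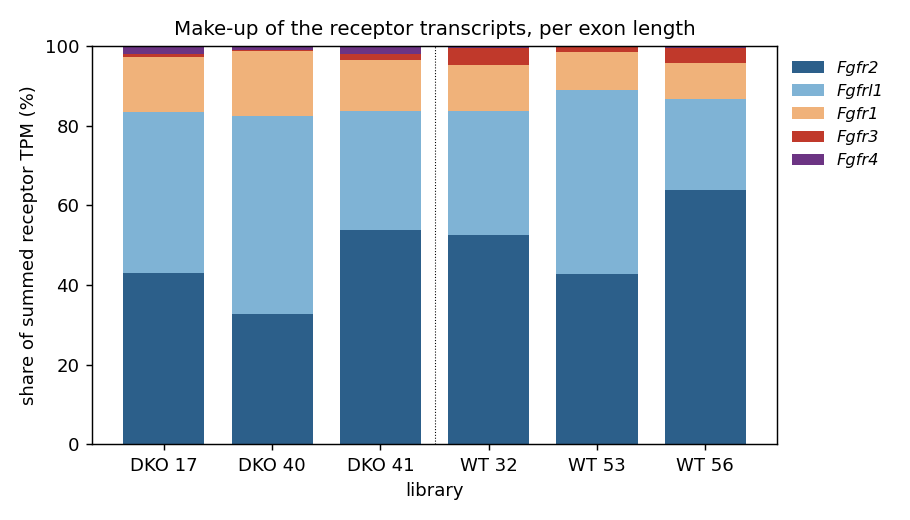
Share of each receptor gene in the summed TPM of Fgfr1 to Fgfr4 and Fgfrl1 (percent, 1 bar per library, DKO left of the dotted line and WT right of it). Fgfr2 and Fgfrl1 fill most of each bar. Of the 2 smallest shares, Fgfr4 is the larger in DKO (0.979% to 2.14%, against 0.223% to 1.49% for Fgfr3). Fgfr3 is the larger in WT (1.34% to 4.11%, against 0.215% to 0.605% for Fgfr4).

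SP proteins bind GC boxes, and the stretches before the RefSeq starts of the 2 members with the largest differences are shown for that reason. No binding data were analysed here. RefSeq (GRCm38.p6) gave windows for 6 of the 7 genes. The motif GGGCGG or its reverse complement CCGCCC was counted on both strands, overlaps included, in the 250 bases before each start. It occurred in 6 of the 7 windows of these genes, against 32.7% of 32851 windows of that length over all genes, with 4 copies before Fgfrl1, 3 before Frs3, 2 before Frs2 and 0 in the window of Fgfr2 at chr7:130266809-130267058. The GC content of the 6 windows with a match was 64% to 74%, against 44% in the Fgfr2 window and a median of 52.4% over all windows. A match describes the letters in the window and is not a binding site. Fgfr3 has 2 RefSeq starts, with windows at chr5:33721474-33721723 and chr5:33722056-33722305 on the plus strand. Fgfr4 has 1, with its window at chr13:55152568-55152817 on the plus strand. RefSeq starts differ from the gene positions given above. By those positions the windows of Fgfr2, Fgfrl1 and Frs3 and the second of Fgfr3 lie wholly inside the gene. Those of Fgfr4 and Frs2 and the first of Fgfr3 lie partly inside it. Capitals mark the GC boxes.
Fgfr3 first start: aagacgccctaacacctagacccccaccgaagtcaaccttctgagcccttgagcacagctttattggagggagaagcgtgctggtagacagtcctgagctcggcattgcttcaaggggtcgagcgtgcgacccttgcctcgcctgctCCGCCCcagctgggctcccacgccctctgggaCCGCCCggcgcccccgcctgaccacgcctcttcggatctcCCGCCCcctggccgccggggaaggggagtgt
Fgfr3 second start: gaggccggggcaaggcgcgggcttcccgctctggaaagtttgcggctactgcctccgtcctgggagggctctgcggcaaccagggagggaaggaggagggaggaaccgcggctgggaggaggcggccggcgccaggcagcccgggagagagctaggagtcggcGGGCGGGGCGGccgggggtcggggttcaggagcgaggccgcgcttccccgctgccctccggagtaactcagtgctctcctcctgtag
Fgfr4 start: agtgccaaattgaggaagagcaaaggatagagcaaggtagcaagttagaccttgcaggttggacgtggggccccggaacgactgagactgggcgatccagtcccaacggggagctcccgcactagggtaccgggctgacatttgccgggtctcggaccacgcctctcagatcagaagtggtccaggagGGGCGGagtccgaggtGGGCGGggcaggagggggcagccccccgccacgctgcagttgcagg

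The rest of the pathway was read from lists chosen with earlier results of these data known. Of 22 FGF ligand genes, 14 were tested, 6 fell and 0 rose in DKO, with a median log2 fold change of -0.89 (the same with Fgf4 at its bound), against 2.81% lower and a median of 0.03 over all genes tested. These were the ridge signals Fgf8 (4.91 ± 7.48 CPM in DKO and 1259 ± 111.6 CPM in WT), Fgf4 (0 counts in DKO and 12.2 to 70.5 CPM in WT) and Fgf17 (3.29 ± 1.07 CPM in DKO and 15.2 ± 0.795 CPM in WT). With them fell Fgf1 (0.53 ± 0.198 CPM in DKO and 5.27 ± 1.21 CPM in WT), Fgf3 (0.126 ± 0.219 CPM in DKO and 4.77 ± 2.99 CPM in WT) and Fgf15 (0.0392 ± 0.0679 CPM in DKO and 2.80 ± 2.68 CPM in WT; SD, n = 3 each). Their edgeR adjusted p lay between 0.00272 and 0.0491. DESeq2 called 4 of them, without Fgf3 (adjusted p = 0.155) and Fgf15 (adjusted p = 0.359), and edgeR without a filter on low counts also called 4 ligands. Fgf1, Fgf8 and Fgf17 kept their calls whichever single library was left out, though the log2 fold change of Fgf8 was -10.98 without DKO 17, where it was -7.99 with all libraries. Fgf3 was lost without DKO 40 (adjusted p = 0.0677), Fgf4 without DKO 17 (0.0726) or WT 32 (0.0594), and Fgf15 without any 1 library but WT 53 (0.112 to 0.251), in which it had 0 counts. The log2 fold change of Fgf3 was -5.38, and -11.65 without DKO 40, -4.76 without DKO 41 and -4.72 without WT 56. That of Fgf15 was -6.32, and -10.94 without DKO 40, -5.72 without DKO 41 and -5.52 without WT 56. DKO 40 was the only DKO library with reads of either gene, and the fitted values without it depend on the prior count and are no bound. Without both DKO 41 and WT 32, 2 ligands were called lower, and Fgf3 (adjusted p = 0.0673), Fgf4 (0.112) and Fgf8 (0.0647) were not. Against a floor of 3 counts over the DKO group, the WT mean of Fgf4 was 3293-fold higher. This bound allows for the DKO counts only and not for the spread of WT (12.2 to 70.5 CPM).

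Fgf10, the mesenchymal ligand of the IIIb form of FGFR2, had 0.18, 3.42 and 2.03 CPM in DKO 17, DKO 40 and DKO 41, against 4.64, 0.237 and 0 CPM in WT 32, WT 53 and WT 56 (edgeR adjusted p = 0.979). It was highest in the libraries with the most Prrx1 of their group. Fgf9, a ridge ligand that acts on mesenchyme, had 39.1, 32.9 and 9.21 CPM in DKO 17, DKO 40 and DKO 41, against 13.3, 15.4 and 19.3 CPM in WT 32, WT 53 and WT 56 (edgeR adjusted p = 0.428).

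Among 26 co-receptor, heparan sulfate and ligand carrier genes, 24 were tested and edgeR called 0 in either direction, against 4.51% of all genes tested. At an unadjusted p under 0.05 there were 7 lower and 1 higher, against 18.0% of all genes in either direction. DESeq2 called 1 lower, edgeR 5 lower without DKO 41, and the median log2 fold change was -0.05. The syndecan Sdc1, a heparan sulfate proteoglycan of epithelia, was at 514.3 ± 24.2 CPM in DKO and 517.02 ± 11.1 CPM in WT (SD, n = 3 each; log2 fold change -0.01, 95% confidence interval -0.22 to 0.20). The klotho co-receptors of the endocrine FGFs were all but unread: Kl had 0 counts in the 6 libraries and Klb was at 0.127 CPM in WT 32 and 0 in the others. Of 7 receptor partner genes 6 were tested and 1 fell, against 2.81% of all genes tested. This was the N-cadherin gene Cdh2, with 5.31 ± 1.58 CPM in DKO and 49.8 ± 8.16 CPM in WT (SD, n = 3 each), 9.38-fold lower (edgeR adjusted p = 0.000311). N-cadherin is known to bind FGFR1 and slow its uptake into the cell, and its call held whichever library was left out. Without DKO 41, 2 of these partners were called lower.

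The factors that choose between the splice forms bear on Fgfr2 more directly. ESRP1 and ESRP2 are the epithelial factors that favour IIIb. Of 7 such genes tested, 1 fell, against 2.81% of all genes. This was Esrp2, read at 26.9 CPM in DKO 17, 30.7 CPM in DKO 40 and 57.9 CPM in DKO 41, against 98.9, 66.9 and 139.3 CPM in WT 32, WT 53 and WT 56. The groups did not overlap, and Esrp2 was 2.64-fold lower in DKO (log2 fold change -1.40, SE 0.328; edgeR adjusted p = 0.0478). The call was lost without DKO 17, DKO 40, WT 32 or WT 56 (edgeR adjusted p between 0.114 and 0.209), and without both DKO 41 and WT 32 (0.0558). Esrp1 had 78.1, 76.3 and 90.5 CPM in DKO 17, DKO 40 and DKO 41, against 110.1, 107.2 and 112.7 CPM in WT 32, WT 53 and WT 56, with a log2 fold change of -0.43 (SE 0.116; edgeR adjusted p = 0.0777; DESeq2 adjusted p = 0.0119). For both genes the groups stood apart, with DKO the lower. Within each group Esrp2 and Fgfr2 were both highest in the same library, DKO 41 and WT 56, as was Frs2. Both Esrp2 and Fgfr2 were lowest of WT in WT 53, but in DKO the lowest was DKO 17 for Esrp2 and DKO 40 for Fgfr2. Ptbp1, which represses the IIIb exon, was at 653 ± 9.78 CPM in DKO and 660 ± 42.8 CPM in WT (SD, n = 3 each; edgeR adjusted p = 0.956). Which splice form the Fgfr2 reads came from was not analysed here.

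Past the receptor, 33 genes of the signal relay were tested, 1 fell and 0 rose, with a median log2 fold change of -0.10, against 2.81% lower, 1.70% higher and a median of 0.03 over all genes. The share of the relay called is thus near that of all genes. Grb2, the partner recruited by FRS2, was at 84.6 to 105.2 CPM in the 6 libraries (log2 fold change 0.11, edgeR adjusted p = 0.701). Gab1 (28.6 to 49.9 CPM, adjusted p = 0.769) and Ptpn11 (49.01 to 66.4 CPM, adjusted p = 0.779) did not pass either. The gene that fell was Pik3r1, the regulatory subunit of phosphoinositide 3-kinase, with 11.7 ± 6.01 CPM in DKO and 33.4 ± 5.54 CPM in WT (SD, n = 3 each; edgeR adjusted p = 0.0289). Its log2 fold change was -1.51, and -2.10 without both DKO 41 and WT 32. Of 9 other docking adaptors built like FRS proteins, 8 were tested and 2 fell, with a median log2 fold change of -0.71, against 2.81% lower and a median of 0.03 over all genes. Irs1, a docking protein of the insulin and IGF receptors, was at 29.0 ± 8.98 CPM in DKO and 61.2 ± 5.01 CPM in WT (SD, n = 3 each; edgeR adjusted p = 0.023). Its relative Irs2 was at 36.3 ± 1.34 CPM in DKO and 69.3 ± 12.3 CPM in WT (SD, n = 3 each; edgeR adjusted p = 0.0128). Pik3r1 and Irs1 were lost without any 1 library but DKO 41 (up to 0.131 and 0.106). Irs2 was lost without DKO 40 (0.0755), without WT 32 (0.062), and without both DKO 41 and WT 32 (0.0884).

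Of 19 feedback and response genes, 18 were tested, 2 fell and 1 rose, with a median log2 fold change of -0.30, against 2.81% lower, 1.70% higher and a median of 0.03 over all genes. The receptor feedback gene Spry1 fell (90.7 ± 60.2 CPM in DKO and 416.9 ± 88.9 CPM in WT) and so did Dusp6, the ERK phosphatase that is a common readout of FGF signalling (91.4 ± 9.67 CPM in DKO and 156.7 ± 28.4 CPM in WT). Dusp5, another ERK phosphatase, rose (24.4 ± 9.64 CPM in DKO and 6.34 ± 3.78 CPM in WT; SD, n = 3 each). Their edgeR adjusted p lay between 0.0256 and 0.0336. Spry2 was at 4.60 to 7.27 CPM in DKO and 4.62 to 5.37 CPM in WT (adjusted p = 0.744). The call of Spry1 was lost without any 1 library but DKO 17 (up to 0.0963), without which its log2 fold change was -2.89, where it was -2.20 with all libraries. Leaving out DKO 40, DKO 41, WT 32 or WT 53 ended the call of Dusp6 (adjusted p up to 0.135). Leaving out DKO 17, DKO 40, WT 32 or WT 56 ended that of Dusp5 (adjusted p up to 0.172), and all 3 were lost without both DKO 41 and WT 32. The number of feedback genes called lower was 4 without DKO 17.

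**Figure D4:**
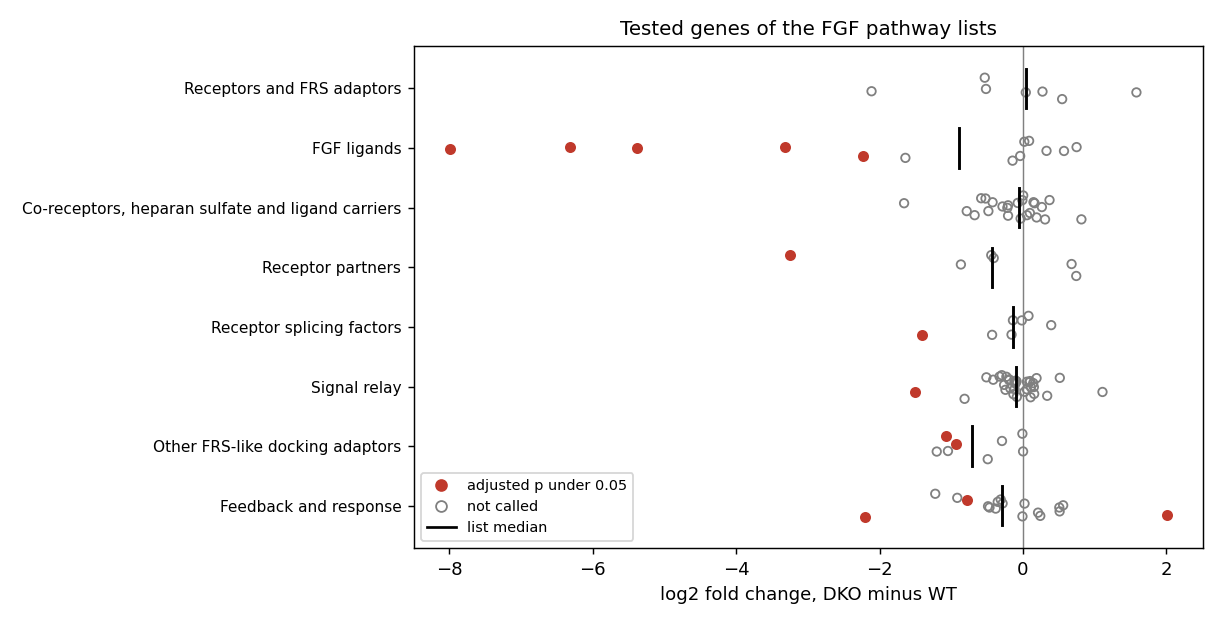
Log2 fold change, DKO minus WT, of each tested gene of the receptors and adaptors and of 7 other FGF pathway lists (points, filled where the edgeR adjusted p is under 0.05; bars, list medians; Fgf4, with 0 counts in DKO, is not drawn). The ligands hold 6 called genes, 5 of them drawn, down to -7.99 for Fgf8, while 0 of the 7 receptor and adaptor genes are filled.

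The genes whose levels ran most like those of each member over the 6 libraries were found by the root mean square difference of log2 CPM, each gene centred on its own mean, among 12333 genes averaging at least 1 CPM. The nearest to Fgfr3 was Anxa1, which encodes a protein that binds membrane phospholipids, with a difference of 0.18. Anxa1 had 1.27, 0.392 and 2.16 CPM in DKO 17, DKO 40 and DKO 41, against 8.29, 2.91 and 9.45 CPM in WT 32, WT 53 and WT 56. Anxa1 fell in DKO (log2 fold change -2.44, edgeR adjusted p = 0.0426), and it shares with Fgfr3 the low WT 53 and the highest DKO library, DKO 41. Arg1 and Adamtsl2 followed at 0.36 and 0.37. Nearest to Fgfr4 were Ppp4r4 (0.27), Flvcr2 (0.27) and Oprk1 (0.31), and nearest to Fgfr2 were Kif13a (0.07), Kdm3a (0.09) and Lrch3 (0.09). For Fgfr1 they were Pttg1, Dhx32 and Phf20 (0.03 to 0.04), for Fgfrl1 Eif2s3x, Rpl27-ps1 and Ndufb4c (0.09 to 0.11), for Frs2 Zfp62, Ralgds and Smarcc2 (0.05 to 0.06), and for Frs3 Clip3, Cnp and Gas1 (0.07 to 0.12). Likeness over 6 libraries of 2 groups is a description, and for members with flat levels many genes are nearly as close.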

How the data were processed

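RNA of peeled forelimb-bud ectoderm was sequenced from SMART-Seq v4 cDNA with Nextera XT libraries, per the labels' protocols. This chemistry marks neither strand nor molecules, so PCR copies count as reads. The deposited table holds unnormalized integer counts for every gene. The submitters' processing notes name DESeq2, StringTie, Cufflinks, HISAT2, fastp and FastQC, and the builds mm10 and GRCm38. Their versions and roles are not given in the labels.

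Columns named DKO and WT were taken as the E9.75 groups. Their numbers match no replicate number of the labels and serve as names. Each pair of libraries within a group differed by more than sampling noise (chi-square per degree of freedom between 50.2 and 157.6).

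Counts were tested with edgeR 4.0.16 in R 4.3.3 (quasi-likelihood F test from a robust glmQLFit with legacy=FALSE, after TMM scaling and filterByExpr), with Benjamini-Hochberg adjustment over 19126 genes and a threshold of 0.05. The script was tested on simulated counts. SE is the log2 fold change over the square root of F; 95% confidence intervals are unadjusted. Alternatives were DESeq2 1.42.0, its size factors, no filter, legacy=TRUE, and libraries left out. Lengths and positions came from GENCODE M21 (99.5% of identifiers matched). TPM used the union of exons; shares were tested by exact permutation.

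Members and lists were chosen with earlier results of these data known. Named are the members, some fixed pathway genes (Sp8, Sp6, Fgf8, Fgf4, Fgf10, Spry1, Spry2, Dusp6, Esrp1, Esrp2, Grb2, Gab1, Ptpn11, Kl, Klb) and up to 6 called genes a list. Sdc1, Ptbp1, Fgf9, Met, Prrx1, Prrx2, Twist1, Twist2, Col1a2, Egfl7, Sox10 and the other muscle precursor markers were named after their values were seen.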

Additional observations from a re-analysis of the deposited data

How the results depend on the processing

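No paired analysis was possible because the columns carry no replicate numbers of the labels. With 3 libraries a group, only large or steady differences could pass. The number of members called lower was 0, and 1 (Fgfr3) with DESeq2; with 1 library left out it was 0 to 1, and the number called higher 0 to 0. Fgfr3 passed with DESeq2 at a log2 fold change of -2.12. With 1 library left out its log2 fold change was -3.03 to -1.69, and those of the other members were 0.17 to 0.34 (Fgfr1), -0.81 to -0.32 (Fgfr2), 1.29 to 1.88 (Fgfr4), -0.15 to 0.31 (Fgfrl1, at -0.14, -0.05 and -0.15 without DKO 40, WT 32 and WT 56), -0.69 to -0.40 (Frs2) and 0.22 to 0.82 (Frs3). The receptor shares kept their direction under coding and longest-transcript lengths and with any 1 library left out. With 1 library left out the differences ranged over 3.20 to 5.12 (Fgfr1), -15.2 to -4.43 (Fgfr2), -3.12 to -1.74 (Fgfr3), 1.01 to 1.59 (Fgfr4) and 1.34 to 13.02 percentage points (Fgfrl1).

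Over all genes, 538 were lower and 325 higher in DKO. DESeq2 gave 984 and 754, no filter 296 and 116 (more genes were tested), legacy=TRUE 346 and 200, and leaving out both DKO 41 and WT 32 gave 282 and 95; with 1 library left out there were 194 to 592 lower and 53 to 332 higher. Of the lists, DESeq2 called 4 ligands, 1 co-receptor, 2 splicing and 2 relay genes lower and 1 relay gene higher. With DESeq2 size factors 0 splicing genes were lower. Without a filter 4 ligands, 0 splicing, 0 relay and 0 feedback genes and 1 docking adaptor were lower and 0 feedback genes higher. With legacy=TRUE 3 ligands, 0 splicing and 0 relay genes were lower and 0 feedback genes higher. Without both DKO 41 and WT 32 there were 2 ligands, 2 partners, 0 splicing genes, 1 docking adaptor and 0 feedback genes lower, and 1 relay gene and 0 feedback genes higher. With 1 library left out the lower counts were 4 to 6 (ligands), 0 to 5 (co-receptors), 1 to 2 (partners), 0 to 2 (splicing), 0 to 1 (relay), 0 to 2 (docking) and 0 to 4 (feedback), and the higher counts 0 to 1 for ligands, relay and feedback. The cause of these moves was not tested.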
